A study of Mus musculus with 3 samples.

Results

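Expression of 10 genes of the YAP and TAZ transcription program was compared between 3 RNA-seq libraries of c2c12, an immortalized mouse myoblast line whose cells fuse into myotubes. The genes are the coactivators Yap1 and Wwtr1, the latter encoding TAZ, their DNA-binding partners Tead1 and Tead4, and 6 genes known to be activated by YAP, TAZ and TEAD, namely Ctgf, Cyr61, Ankrd1, Amotl2, Lats2 and Axl. They were picked by gene symbol from count files that list 23238 symbols, and 10 of 10 were among the 13169 symbols that reached a CPM (counts scaled to the size of the library) of 1 in any library. The cells of all 3 libraries were grown in serum-rich growth medium and then moved to myogenic induction medium with horse serum, in which they were kept for 2 days. They differed in the substrate under the cells, which was a tissue culture plate (TCP), a hydrogel of Methacarylated gelatin (GelMA), or a hydrogel of 15% GelMA with 1% PSS, poly sodium 4-styrenesulfonate, a sulfonated polymer that serves as a heparin mimic (GelMA-PSS). The paper's methods give 15% GelMA for the hydrogel without PSS as well. Each substrate has 1 library, so differences cannot be set against a spread between cultures and no p-values are given.

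YAP and TAZ are coactivators without a DNA-binding domain of their own. In the Hippo pathway the kinases MST and LATS phosphorylate them, which keeps them in the cytoplasm, whereas unphosphorylated YAP and TAZ enter the nucleus and bind TEAD factors on the promoters and enhancers of genes for matrix signals, cytoskeletal proteins and growth. Cell spreading, substrate stiffness and actin tension are well known to raise their nuclear activity. In myoblasts YAP favours proliferation, and TEAD factors bind the M-CAT element, a short motif first described in muscle promoters. The RNA levels given here say nothing of phosphorylation or of where the proteins were located.

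Total counts ranged from 87071144 in GelMA to 192171443 in GelMA-PSS, and levels are CPM with TMM factors, which correct for composition. The muscle identity of the cells was visible in all libraries, with 8 of 8 myoblast and myotube markers passing the filter and a summed CPM from 13490 to 22090. Of the endothelial and adipocyte markers 0 of 4 each passed the filter, with summed CPM of at most 0.905 and 0.0986, and the blood and epithelial lists reached at most 4.31 and 10.4. Of these, 2 of 4 blood and 1 of 4 epithelial markers passed, and they moved between the libraries, with Cd14 at 2.12 CPM in TCP, 3.66 in GelMA and 3.82 in GelMA-PSS, Itgam at 1.03, 0.649 and 0.375, and Cdh1, which encodes E-cadherin, at 10.2, 8.26 and 5.31. The defining markers Ptprc and Epcam had 4 counts or fewer in every library. The myotube gene Myh3, an embryonic myosin heavy chain, was at 10180 CPM in TCP, 6355 in GelMA and 3037 in GelMA-PSS, and the myoblast gene Myf5 at 13.9, 19.5 and 36.5 CPM. They were the extremes of the 8 muscle markers, whose median log2 difference was 0.14 between GelMA-PSS and GelMA, and with the length and GC correction described below the difference of Myh3 between these libraries went from -1.06 to -0.61. Myod1, Myog, Des and Cdh15 had log2 differences from 0.14 to 0.21 there and Ckm and Acta1 of -0.18 and -0.09. With TPM as the scale the first 4 lay below 0, as did the median of all genes, at -0.36. The part of these markers in the differences below was not tested. In RNA from a whole culture, fewer cells of a kind and less RNA per cell cannot be told apart.

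The promoters of these genes are shown first, because TEAD is the DNA-binding partner of YAP and TAZ. RefSeq gives a window from 250 bases before to 50 bases after a transcription start (GRCm38.p6) for 7 of the 10 genes, and these windows were searched on both strands for the TEAD motif GGAATG, which reads CATTCC on the other strand. All 7 genes have it, for Wwtr1 in each of 2 windows and for Lats2 in 1 of 2, while 16.6% of the 27025 genes with such a window do, or 14.7% of their 32851 windows. Counted from the start, its first base is at -141 in Yap1, -136 in Wwtr1, -103 in Cyr61, -210 and -123 in Ankrd1, -65 in Amotl2 and -233 in Axl, whereas in Lats2 it is at 5, after the start. The longer M-CAT motif CATTCCT overlaps the TEAD motif and was added after the sequences had been seen. It was found in 6 of the 7 genes, all but Lats2, and in 6.15% of all genes with a window. The AP-1 motif TGANTCA was found in 0 of the 7 genes and in 8.97% of all genes with a window. These matches describe letters and not binding. The stretches below run 5′ to 3′ on the strand of the gene, with the TEAD motif in capitals.
Yap1, chr9:8004722-8004747, minus strand: ggagtctgcaGGAATGtagcgacgcg
Wwtr1, chr3:57576031-57576056, minus strand: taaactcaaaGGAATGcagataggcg
Cyr61, chr3:145650073-145650098, minus strand: cgccaaccaaCATTCCtgagatgttt
Ankrd1, chr19:36120039-36120064, minus strand: cactgccaaaGGAATGaccctctcac
Ankrd1, chr19:36119952-36119977, minus strand: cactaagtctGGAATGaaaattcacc
Amotl2, chr9:102717729-102717754, plus strand: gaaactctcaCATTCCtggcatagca
Axl, chr7:25788951-25788976, minus strand: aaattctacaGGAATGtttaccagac

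GENCODE vM21 places an exon of 1 transcript over both Ankrd1 stretches and of 2 transcripts over the Amotl2 stretch, and no exon over the others. The RefSeq starts of these 2 genes lie inside the bounds that GENCODE gives the gene. The whole 250 bases before the start of Cyr61, a gene often read as a reporter of YAP activity, are given as the example of a target promoter, at chr3:145649986-145650235 on the minus strand, with the TEAD motif in capitals.
Cyr61 promoter: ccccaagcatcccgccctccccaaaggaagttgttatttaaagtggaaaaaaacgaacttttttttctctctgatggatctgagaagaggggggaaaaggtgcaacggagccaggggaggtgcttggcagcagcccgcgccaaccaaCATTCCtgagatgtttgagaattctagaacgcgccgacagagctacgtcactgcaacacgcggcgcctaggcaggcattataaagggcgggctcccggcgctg

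The first question was whether the RNA of the coactivators themselves differed between substrates. Yap1 (chr9:7931999-8004596, minus strand, GRCm38) was at 70.5 CPM in TCP, 70.65 in GelMA and 59.5 in GelMA-PSS. The control libraries were equal within counting error, with a ratio of GelMA to TCP of 1.00 and a 95% exact interval from 0.970 to 1.03. GelMA-PSS was lower than GelMA by 1.19-fold (interval 1.15 to 1.22) and lower than TCP by 1.19-fold (1.15 to 1.22). The log2 differences, -0.245 and -0.242, were at percentiles 28.5 and 29.0 of all genes, inside the quartiles. With the length and GC correction described below they were -0.101 and -0.119. All intervals here cover counting error only, and they would be wider if the 2 reads of a pair entered the counts separately, a point the sources leave unstated. Over the members, the widest Wilson interval of a level in relation to its size was that of Lats2 in GelMA, 43.4 to 46.2 CPM around 44.8. Yap1 shares 116 bases of exon with Gm20416 on the opposite strand, a gene the count files do not list.

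Wwtr1 (chr3:57455649-57575910, minus strand) was at 221 CPM in TCP, 206 in GelMA and 150 in GelMA-PSS, so that the libraries did not overlap within counting error. The GelMA-PSS level was 1.37-fold lower than that of GelMA (1.34 to 1.40) and 1.471-fold lower than that of TCP (1.446 to 1.496), while GelMA was 1.07-fold lower than TCP. Wwtr1 was thus the coactivator with the larger difference on GelMA-PSS. Its log2 differences from GelMA and TCP, -0.45 and -0.55, were -0.34 and -0.48 with the length and GC correction. Per kilobase of transcript, which makes levels of different genes comparable, Wwtr1 exceeded Yap1 in each library. The ratio of Wwtr1 to Yap1 was 2.88 in TCP (2.81 to 2.95), 2.68 in GelMA (2.60 to 2.76) and 2.32 in GelMA-PSS (2.27 to 2.38). This ratio does not depend on how the libraries are scaled, and both transcripts are of similar length, 4171 bases for Yap1 and 4533 for Wwtr1.

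Both TEAD genes were lower in GelMA-PSS than in the control libraries. Tead1 (chr7:112679318-112906807, plus strand), which is widely expressed, was at 143 CPM in TCP, 133 in GelMA and 60.6 in GelMA-PSS. The control libraries lay close to each other and GelMA-PSS well below both, by 2.199-fold against GelMA (2.143 to 2.257) and 2.351-fold against TCP (2.296 to 2.408). Tead4 (chr6:128224288-128300823, minus strand), which is known to act in myogenic differentiation, was at 105 CPM in TCP, 106 in GelMA and 61.8 in GelMA-PSS. Its GelMA to TCP ratio of 1.01 included 1 in its interval (0.982 to 1.03), and GelMA-PSS was 1.72-fold lower than GelMA (1.67 to 1.76) and 1.70-fold lower than TCP (1.66 to 1.75).

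Transcript length matters for these values. Over the 13054 genes with a known length, the log2 ratio followed the length with a Spearman's rho of -0.657 between the hydrogels, of -0.503 for GelMA-PSS against TCP and of 0.209 for GelMA against TCP, a description across genes, which are not independent replicates. Long transcripts were lower in GelMA-PSS. The Tead1 transcript has 9964 bases, percentile 98.0 of the genes tested, whereas that of Tead4 has 3076 bases. On the scale of log2(CPM + 1), the difference between GelMA-PSS and GelMA was -1.12 for Tead1 and -0.77 for Tead4, and after a loess correction for transcript length and GC content it was -0.37 and -0.70. Against TCP the corrected values were -0.69 and -0.70, from -1.22 and -0.76. The order of the 2 genes against GelMA thus turned with the correction, and the corrected Tead4 ratio was at percentile 3.59 of all genes while that of Tead1 was at percentile 12.6. Whether the relation to length arose in the cells or in the libraries was not tested.

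**Figure D1:**
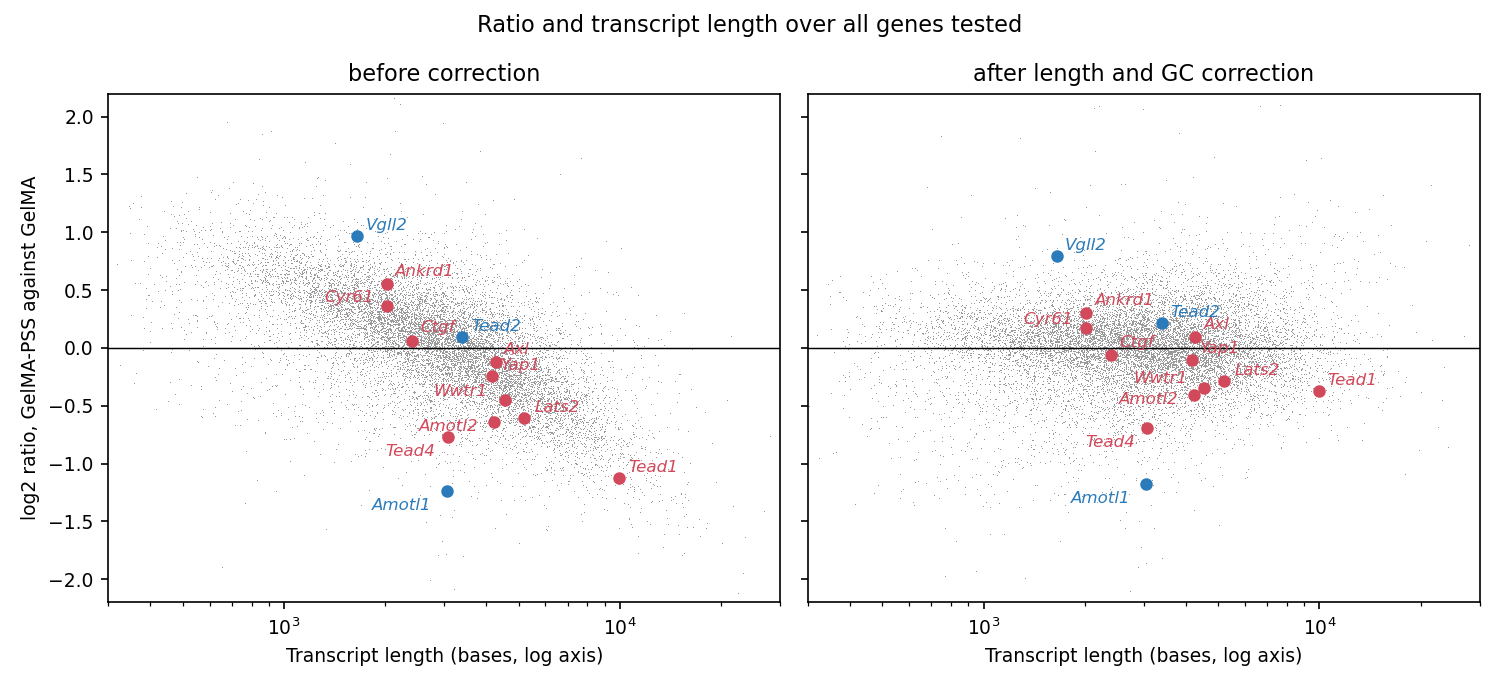
Log2 ratio of GelMA-PSS against GelMA on the scale of log2(CPM + 1) plotted against transcript length in bases (log axis) for all genes tested with a known length (grey points, those beyond the vertical range not shown), as measured (left) and with the length and GC correction (right). The 10 genes are in red and 3 related genes in blue. Tead1, with 9964 bases, moved from -1.12 to -0.37, while Tead4 and Amotl1 stayed near their values, at -0.70 and -1.18 after the correction.

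Within the TEAD family the shares of the 4 genes differed between libraries. Summed per kilobase, the family came to 89.7 CPM in TCP, 86.5 in GelMA and 63.8 in GelMA-PSS. Tead4 was the most abundant member in TCP and GelMA, with 38.2% and 39.9% of the sum, and made up 31.5% in GelMA-PSS. Tead2 was the most abundant in GelMA-PSS, with 24.4% in TCP, 27.2% in GelMA and 39.3% in GelMA-PSS. Tead2 is best known from early development and neural tissue. Its own level was 74.2 CPM in TCP, 79.8 in GelMA and 85.3 in GelMA-PSS, a log2 difference of 0.09 against GelMA that was -0.05 with total counts as the scale and -0.36 with TPM. Tead3 stood at 47.3, 37.0 and 30.7 CPM. Tead1 made up 15.9%, 15.5% and 9.54% of the sum. These sums and shares do not include the length and GC correction. With it, the log2 difference of Tead1 from GelMA went from -1.12 to -0.37.

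**Figure D2:**
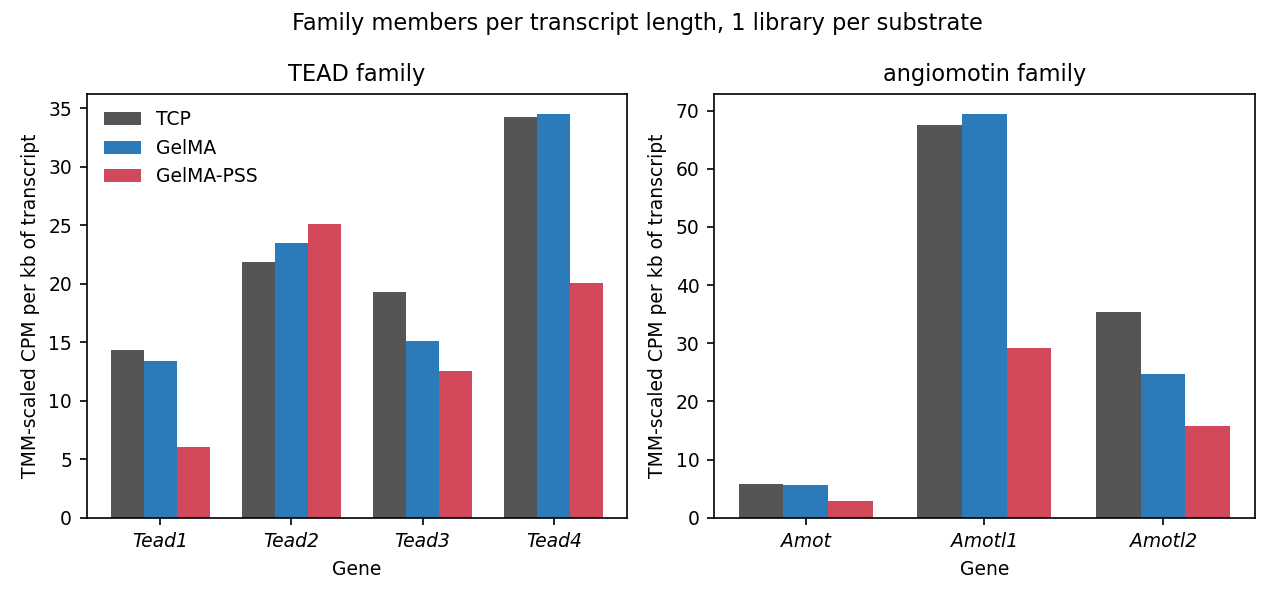
TMM-scaled CPM per kilobase of transcript (vertical axis from 0) for the TEAD family (left) and the angiomotin family (right), with 1 bar per library of TCP, GelMA and GelMA-PSS and no error bars, since each substrate has 1 library. Tead4 led its family in TCP and GelMA and Tead2 in GelMA-PSS, and all 3 angiomotin genes were lowest in GelMA-PSS. The values do not include the length and GC correction.

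The matricellular targets Ctgf and Cyr61, and Ankrd1, were lower in GelMA than in TCP. Ctgf (chr10:24595442-24598683, plus strand, now named Ccn2), a secreted protein that binds matrix and growth factors, was at 172 CPM in TCP, 87.2 in GelMA and 91.1 in GelMA-PSS. Both hydrogel libraries were low and TCP was high. GelMA was 1.97-fold lower than TCP (1.92 to 2.02) and GelMA-PSS 1.88-fold lower (1.85 to 1.92). The log2 difference of GelMA from TCP, -0.97, was at percentile 0.319 of all genes, and -0.94 at percentile 0.322 after the correction. Between the hydrogels the log2 difference was 0.06, which turned to -0.06 with the length and GC correction, -0.08 with total counts and -0.40 with TPM, so no direction is given. Ctgf shares 347 bases of exon with Gm15270 on the opposite strand, which the count files do not list either.

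Cyr61 (chr3:145646976-145649981, minus strand, now Ccn1), a relative of Ctgf in the CCN family that binds integrins, was at 311 CPM in TCP, 205 in GelMA and 264 in GelMA-PSS. TCP was again the highest, and GelMA-PSS lay between the controls. GelMA was 1.52-fold lower than TCP (1.49 to 1.54) and GelMA-PSS 1.18-fold lower than TCP (1.16 to 1.19). Against GelMA the GelMA-PSS level was 1.29 times as high (1.27 to 1.31), a log2 difference of 0.36. This difference was 0.17 after the length and GC correction and -0.10 with TPM, where the median of all genes was -0.36.

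Ankrd1 (chr19:36111961-36120099, minus strand), a muscle ankyrin repeat protein that links the titin filament to transcription and responds to stretch, was the most abundant of the 10 genes per kilobase in every library. It was at 942 CPM in TCP, 699 in GelMA and 1025 in GelMA-PSS. GelMA was the lowest of the libraries and 1.35-fold lower than TCP (1.34 to 1.36). GelMA-PSS was 1.47 times as high as GelMA (1.45 to 1.48), a log2 difference of 0.55. This difference was 0.30 with the length and GC correction and 0.08 with TPM, where the median of all genes was -0.36. Against TCP the ratio was 1.09 (1.08 to 1.10). However, the log2 difference of 0.12 turned to -0.06 after the correction and to -0.30 with TPM, beside a median of -0.31 for all genes.

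These 3 targets did not keep their proportions. Per kilobase, Cyr61 exceeded Ctgf 2.15-fold in TCP (2.12 to 2.19), 2.79-fold in GelMA (2.72 to 2.87) and 3.45-fold in GelMA-PSS (3.39 to 3.51). Ankrd1 exceeded Ctgf 6.51-fold in TCP, 9.504-fold in GelMA and 13.4-fold in GelMA-PSS. The transcripts of Ankrd1 and Cyr61 are nearly equal in length, with 2020 and 2019 bases, so that their ratio is free of the relation to length. That ratio was 3.02 in TCP (2.99 to 3.06), 3.40 in GelMA (3.35 to 3.46) and 3.87 in GelMA-PSS (3.83 to 3.91). The order of the libraries was the same in the 3 ratios, which share genes.

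Of the other 13168 genes tested, 2 had log2 ratios of GelMA to TCP and of GelMA-PSS to GelMA that were both within 0.1 of those of Ctgf, 21 were as near to Cyr61 and 73 to Ankrd1. The 2 genes nearest to each in these ratios over 3 libraries were Atp6v1c2 and Smpx for Ctgf, at distances of 0.033 and 0.11 on the log2 scale, Sncg and Ogn for Cyr61, at 0.036 and 0.056, and Mgp and Cfap36 for Ankrd1, at 0.023 and 0.025. The GelMA to TCP ratios of Ctgf, Cyr61 and Ankrd1 were at percentiles 0.319, 1.99 and 4.94 of all genes. A window of fixed width holds fewer genes towards the tail, so the counts are not read as a result about the patterns.

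Amotl2 and Lats2 are targets that act back on YAP. Amotl2 (chr9:102716672-102733418, plus strand), an angiomotin that binds YAP at junctions and holds it out of the nucleus, was at 149 CPM in TCP, 104 in GelMA and 66.4 in GelMA-PSS. The level was highest in TCP and lowest in GelMA-PSS, with GelMA between them. GelMA-PSS was 2.251-fold lower than TCP (2.199 to 2.303) and 1.57-fold lower than GelMA (1.53 to 1.61), and GelMA was 1.43-fold lower than TCP (1.40 to 1.47). After the length and GC correction the log2 differences were -0.97, -0.41 and -0.53, in the same order. Its TEAD motif, shown above, is the one closest to a start among those that precede it.

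Lats2 (chr14:57689662-57758388, minus strand), the kinase that phosphorylates YAP and TAZ, was at 49.4 CPM in TCP, 44.8 in GelMA and 29.1 in GelMA-PSS. GelMA-PSS was the lowest and lay 1.54-fold below GelMA (1.48 to 1.60) and 1.70-fold below TCP (1.64 to 1.76). The controls differed by 1.10-fold. With a transcript of 5191 bases, its log2 difference from GelMA went from -0.61 to -0.29 with the correction and that from TCP from -0.75 to -0.51. Lats2 shares 1301 bases of exon with Gm49361 on the same strand, so reads of that stretch cannot be told apart.

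Axl (chr7:25757273-25788705, minus strand), a receptor tyrosine kinase of the TAM family that binds Gas6, was the member that was higher on both hydrogels than on TCP. It was at 203 CPM in TCP, 300.3 in GelMA and 276 in GelMA-PSS, with TCP the lowest and GelMA the highest. GelMA was 1.48 times as high as TCP (1.46 to 1.51), at percentile 96.2 of all genes, and GelMA-PSS was 1.36 times as high (1.34 to 1.38). After the correction these log2 differences were 0.54 and 0.61, from 0.57 and 0.44. With total counts they were 0.60 and 0.33, and with TPM 0.61 and 0.03. With TPM GelMA-PSS was thus close to TCP, on a scale where the median of all genes was -0.31 in that comparison. Between the hydrogels the log2 difference was -0.12, and it was 0.10 after the length and GC correction.

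**Figure D3:**
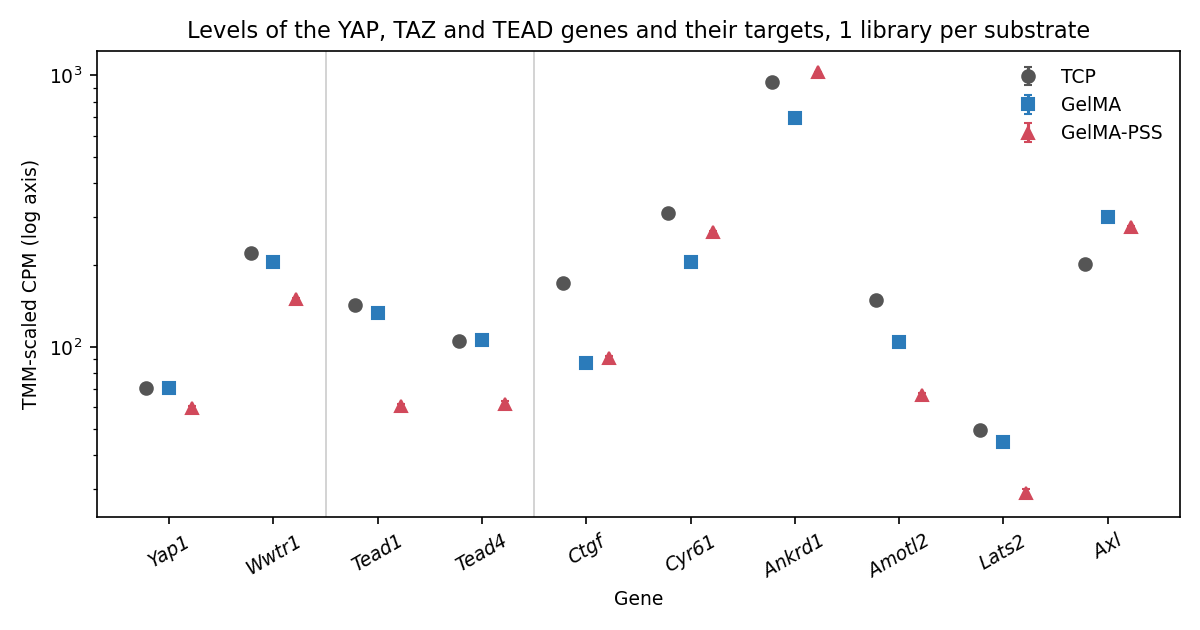
Levels of the 10 genes as CPM with TMM factors (log axis) in the libraries of TCP (circles), GelMA (squares) and GelMA-PSS (triangles), 1 library per substrate. Error bars are 95% Wilson intervals for counting error and are mostly smaller than the symbols. Yap1, Wwtr1, Tead1, Tead4, Amotl2 and Lats2 were lowest in GelMA-PSS. Ctgf was high in TCP alone, with 172 CPM against 87.2 and 91.1, and Axl was lowest in TCP, with 203 CPM.

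Counted over the members, a difference was called when it passed 2-fold on the scale of log2(CPM + 1). For GelMA-PSS against GelMA, 1 of 10 was called lower, Tead1, where 2.33% of all genes were, and 0 were called higher, where 1.77% were. Against TCP, 2 were called lower, Tead1 and Amotl2 (3.13% of all genes), and 0 higher (3.72%). For GelMA against TCP, 0 were called lower (0.296% of all genes) and 0 higher (0.706%). Tead1 alone was called lower in both comparisons of GelMA-PSS with a control (1.16% of all genes), and 0 were called higher than both (1.37%). The comparisons with each control share the GelMA-PSS library. After the length and GC correction Tead1 was no longer called. Ctgf in GelMA-PSS against TCP, at -1.001, was the 1 member called, where 313 of 13054 genes were called lower.

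At a threshold of 1.5-fold, 4 members were called lower in GelMA-PSS than in GelMA, namely Tead1, Tead4, Amotl2 and Lats2, where 10.8% of all genes were, and 0 higher (11.0%). Against TCP, 5 were called lower, these 4 and Ctgf (11.5% of all genes), and 0 higher (13.2%). The same 4 genes were lower than both controls (7.18% of all genes), and 0 were higher than both (8.08%). Between GelMA and TCP, Ctgf and Cyr61 were called lower (2.12% of all genes) and 0 higher (3.5%), with Axl just short of the threshold at 0.57.

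The median log2 difference of the 10 genes was -0.35 against GelMA and -0.65 against TCP, beside 0.04 and 0.04 for all genes tested. Corrected for length and GC content it was -0.19 and -0.49. For GelMA against TCP the median was -0.12, beside -0.01 for all genes, and -0.23 after the correction. Below 0 lay 7 members in GelMA-PSS against GelMA, 8 against TCP and 7 in GelMA against TCP, where 46.9%, 47.2% and 51.7% of all genes did. Taken alone, the 6 targets had medians of -0.03, -0.49 and -0.47 in these comparisons. The median between the hydrogels joins 3 targets above 0 and 3 below, from -0.64 for Amotl2 to 0.55 for Ankrd1. In GelMA against TCP 5 of the 6 targets lay below 0, with Lats2, at -0.14, inside the quartiles of all genes (lower quartile -0.15). After the correction Lats2 was at -0.20, percentile 17.4, outside the corrected quartiles (lower quartile -0.138). Yap1, Wwtr1, Tead1 and Tead4 lay between -0.10 and 0.01, although the corrected value of Tead1 was -0.26, at percentile 11.8 of all genes. The lower values of the targets did not extend to the 15 other YAP targets tested, described below. Their median in GelMA against TCP was -0.01, with 8 below 0 and 7 above.

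**Figure D4:**
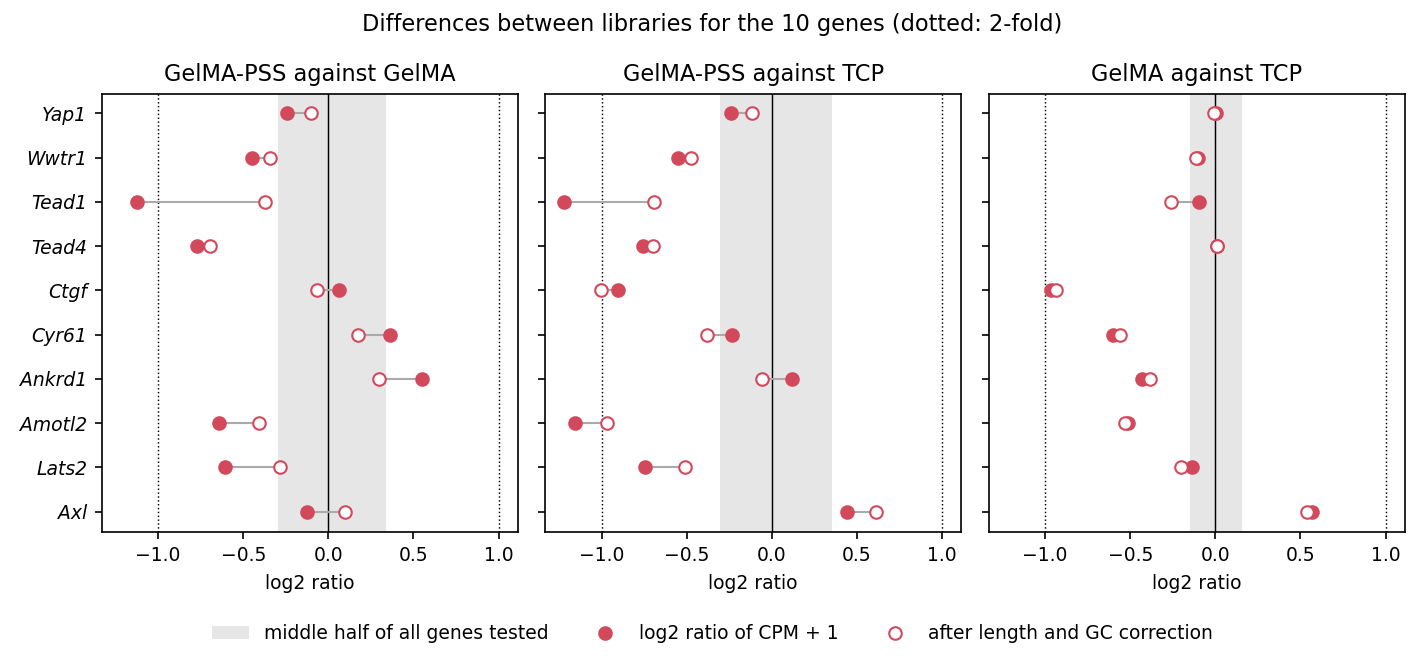
Log2 differences between libraries for each of the 10 genes, on the scale of log2(CPM + 1) (filled) and with the length and GC correction (open), with 1 library per substrate. Grey bands run from the lower to the upper quartile of all genes tested and dotted lines mark 2-fold. In GelMA against TCP (right) the filled points of the coactivators and TEAD genes lie between -0.10 and 0.01 and the open point of Tead1 at -0.26, while Ctgf is at -0.97 and Axl at 0.57 (filled).

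The other genes of the pathway were read from lists. Of 22 Hippo kinases and adaptors, 19 were tested. Their median log2 difference was -0.41 against GelMA and -0.32 against TCP, with corrected values of -0.11 and -0.09. Past 2-fold, 2 were called lower against GelMA (2.33% of all genes), Taok1 and Fat4, and 1 against TCP (3.13%), Taok1. In the list 0 were called higher than GelMA (1.77% of all genes) and 0 higher than TCP (3.72%). Taok1, a kinase upstream of MST with a transcript of 12409 bases, was at 240 CPM in TCP, 227 in GelMA and 89.6 in GelMA-PSS. Its log2 difference from GelMA was -1.33 and -0.49 after the correction. Fat4, a giant cadherin of 16109 bases, was at 3.33, 4.31 and 1.65 CPM, and its log2 difference from GelMA turned from -1.01 to 0.19. The calls in this list therefore fell on very long transcripts.

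The next list holds proteins that bind YAP, among them the angiomotins at cell junctions, and proteins that inhibit LATS. On that list, 5 of 6 genes lay below 0 in GelMA-PSS against GelMA as measured, and 5 against TCP. Of all genes, 46.9% lay below 0 against GelMA and 47.2% against TCP. After the length and GC correction, 5 of the 6 lay below 0 against GelMA and 4 against TCP. Amotl1, an angiomotin and relative of Amotl2, was at 206 CPM in TCP, 212 in GelMA and 89.1 in GelMA-PSS. Its level in GelMA-PSS was called lower than either control, with log2 differences of -1.24 and -1.20 that were -1.18 and -1.15 after the correction, its transcript having 3046 bases. Amot, the third angiomotin, with a transcript of 6957 bases, was at 40.6, 39.4 and 20.5 CPM. Its log2 differences from GelMA and TCP, -0.91 and -0.95, were -0.44 and -0.61 after the correction. Summed per kilobase, the 3 angiomotin genes in GelMA-PSS came to 0.441 of the TCP and 0.48 of the GelMA value. These sums do not include the length and GC correction. Ptpn14, a phosphatase that binds YAP, was at 44.0, 65.4 and 33.4 CPM, and its log2 difference from TCP of -0.39 turned to 0.24 after the correction. The LIM proteins Limd1 and Ajuba, which inhibit LATS, were at 71.3, 62.5 and 44.4 CPM and at 55.4, 47.6 and 36.4 CPM. Wtip, of the same family, was at 16.3, 14.3 and 16.8 CPM.

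Vestigial-like proteins compete with YAP and TAZ for TEAD. Vgll2, which is known in skeletal muscle, was at 14.0 CPM in TCP, 13.9 in GelMA and 28.0 in GelMA-PSS. It was higher in GelMA-PSS than on either control substrate, with log2 differences of 0.97 and 0.95, just short of 2-fold on this scale, and of 0.80 and 0.84 after the correction. Vgll3 was at 74.8, 55.1 and 46.0 CPM and Vgll4 at 13.5, 13.2 and 12.1 CPM. Vgll1 had 0 counts in all libraries, where 3 counts would be a CPM of 0.0166 to 0.0330.

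Of 16 other genes listed as YAP targets, 15 were tested, with a median log2 difference of -0.27 against GelMA and -0.33 against TCP, and -0.06 and -0.17 after the correction. Against TCP 1 was called lower (3.13% of all genes) and 1 higher (3.72%), and against GelMA 0 were called lower (2.33%) and 0 higher (1.77%). Igfbp3, a carrier of insulin-like growth factors, was called lower, with 9.65 CPM in TCP, 6.21 in GelMA and 3.86 in GelMA-PSS. Nt5e, an ectonucleotidase, was called higher, with 9.84, 16.5 and 21.9 CPM. Their log2 differences from TCP, -1.13 and 1.08, became -1.22 and 1.16 with the correction.

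**Figure D5:**
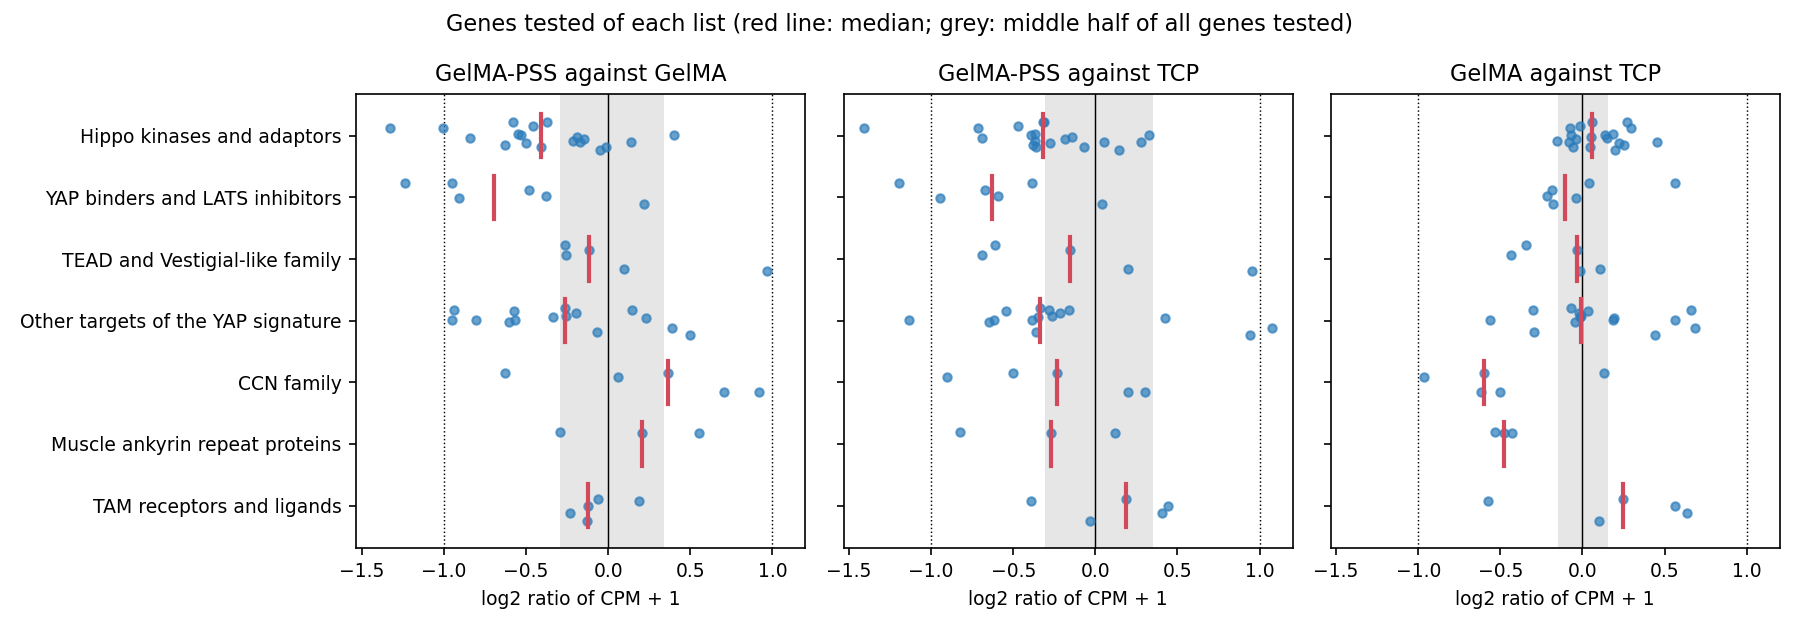
Log2 differences on the scale of log2(CPM + 1) for the genes tested of each list (points), with the list's median (red line), for the 3 comparisons between single libraries. Grey bands run from the lower to the upper quartile of all genes tested and dotted lines mark 2-fold. The median of the YAP binders and LATS inhibitors was -0.70 against GelMA and -0.63 against TCP, with corrected medians of -0.23 and -0.48.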

How the data were processed

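RNA-seq counts came from c2c12 cells on 3 substrates, and each substrate, assigned from the sample labels, had 1 library. The deposited values are raw counts for each gene symbol, which the authors had not normalized. The submitters' processing notes name TopHat, edgeR and the builds mm10 and hg19 with no role or version. The aligner settings, the counting tool, the annotation and the use of strand are not given in the sources used here. The labels name a SMARTER mRNA kit and the methods a TruSeq RNA kit with strand-specific sequencing.

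The 23282 lines of each file were summed by symbol, as 35 symbols appear more than once. The total was 119799095 in TCP, 87071144 in GelMA and 192171443 in GelMA-PSS. CPM were scaled with TMM factors of 1.02, 1.04 and 0.943 (edgeR 4.0.16 in R 4.3.3). Symbols that reached a CPM of 1 in any library were tested, and log2 ratios were taken with a pseudocount of 1, which understates the change of low genes. The methods name a fold above 2 with a p-value on FPKM. With 1 library per substrate only the fold was used. Intervals are Wilson intervals for a CPM and exact binomial intervals for a ratio of CPM, at 95% (scipy 1.17.1), and cover counting error only.

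Lengths and GC content of transcripts were taken from GENCODE vM21 (GRCm38), using for each gene the transcript with the longest coding sequence and preferring the basic set. Of the symbols 22197 matched directly, 650 through older names and 391 not at all. Log2 ratios were corrected by 2 successive loess fits (span 0.3, statsmodels 0.14.6). Promoters came from RefSeq (GRCm38.p6), which gave no window for Ctgf, Tead1 and Tead4. The procedure was tested on simulated data. Alternatives covered scaling (DESeq2 1.42.0 size factors, total counts, TPM), pseudocount, fold threshold, filter, and the length and GC correction.

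The text names all 10 members, the genes of the pathway lists past 2-fold in any comparison (at most 4 per list), all tested genes of pathway lists of 6 or fewer, and the 2 genes most like Ctgf, Cyr61 and Ankrd1. The members and lists were chosen with earlier results of these data known.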

Additional observations from a re-analysis of the deposited data

How the results depend on the processing

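Of the 30 log2 ratios of the 10 genes, 25 kept their direction under all 7 alternatives to scaling, pseudocount, filter and length. The other 5 were given beside their values above (Ctgf, Cyr61 and Axl in GelMA-PSS against GelMA, Ankrd1 in GelMA-PSS against TCP, Yap1 in GelMA against TCP, where the 0.00 became -0.01 with the length and GC correction). The number of members called lower, 1 against GelMA, 2 against TCP, 1 against both and 0 for GelMA against TCP, became 4, 5, 4 and 2 with the 1.5-fold threshold, which calls more by construction. With TPM these numbers were 4 against GelMA, 5 against TCP and 4 against both, where 1031, 1044 and 625 of 13054 genes were called lower. With the length and GC correction they were 0, 1 and 0, the 1 being Ctgf, where 157, 313 and 82 of 13054 genes were called lower. TPM without TMM factors brought the median of all genes from 0.04 to -0.36 against GelMA and from 0.04 to -0.31 against TCP. Relative to the median of all genes the median of the members was -0.44 and -0.72, beside -0.38 and -0.69 in the values reported. The genes called in GelMA-PSS against both controls were 180 higher and 153 lower as reported, 97 and 261 with total counts, 29 and 625 with TPM, and 57 and 82 with the length and GC correction. With total counts 3 members were called lower against TCP, where 576 of 13169 genes were. The remaining alternatives left the numbers of members called as they were. With 1 library per substrate, none could be left out, and no spread between cultures is known. No paired analysis was possible because each substrate has 1 library. Depth was not the limit for the 10 genes, whose lowest count was 4069, for Lats2 in GelMA.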

Other observations

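The relatives of the targets were read beside them, as values without a test. In the CCN family, Nov was at 21.0 CPM in TCP, 13.3 in GelMA and 26.1 in GelMA-PSS, and Wisp2 at 3.42, 2.11 and 4.07 CPM. Like Ctgf and Cyr61, both were lower in GelMA than in TCP, by 0.62 and 0.51 on the log2 scale, whereas Wisp1 was at 76.9, 84.2 and 54.1 CPM. Wisp3 did not pass the filter, with 9, 14 and 16 counts. All 3 muscle ankyrin repeat genes were lower in GelMA than in TCP, with log2 differences of -0.43 for Ankrd1, -0.48 for Ankrd2 and -0.53 for Ankrd23. In GelMA-PSS they parted as measured. Ankrd23 was at 77.5 CPM, below its 138 in TCP and 95.3 in GelMA, and Ankrd2 at 90.4 CPM, against 109 and 78.2. With the length and GC correction, Ankrd1, Ankrd2 and Ankrd23 were at 0.30, -0.18 and -0.43 against GelMA. Against TCP they were at -0.06, -0.59 and -0.92. Ankrd1 made up 73.7%, 74.7% and 81.0% of the sum of the 3 genes per kilobase in TCP, GelMA and GelMA-PSS, without the correction.

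Among the TAM receptors, Mertk followed the order of Axl as measured, with 4.77 CPM in TCP, 7.98 in GelMA and 6.64 in GelMA-PSS. With the length and GC correction, the log2 difference between the hydrogels was -0.09 for Mertk and 0.10 for Axl. Tyro3 was at 11.4, 12.3 and 11.1 CPM. The ligand Gas6 was highest in TCP, with 3.65 CPM against 2.11 in GelMA and 2.54 in GelMA-PSS, while the ligand Pros1 was at 17.6, 21.0 and 20.1 CPM. The second LATS kinase, Lats1, was at 44.9, 54.4 and 36.0 CPM. Lats2 thus made up 60.4% of the LATS sum per kilobase in TCP, 53.4% in GelMA and 52.9% in GelMA-PSS. These shares do not include the length and GC correction.

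The TEAD motif was found in the promoter windows of 3 of 18 Hippo kinases and adaptors (Sav1, Mob1a and Wwc2), 3 of 5 YAP binders and LATS inhibitors (Ptpn14, Ajuba and Wtip), 4 of 6 genes of the list of TEAD and Vestigial-like genes (Tead3, Vgll1, Vgll3 and Vgll4) and 2 of 10 other YAP targets (Crim1 and Ptpn14), counting genes with a window, beside 16.6% of 27025 genes.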
